A study of Homo sapiens with 35 samples.

Results

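The 59 genes described here encode the machinery of mitosis: CDK1 and its cyclins, the mitotic kinases, the kinetochore, the mitotic kinesins and the proteins of cytokinesis. They were chosen by name, as rows of a gene count table of 28503 genes, and all 59 were found and had enough counts to be tested. RNA came from DU145 cells, a human line established from prostate cancer that had spread to the brain. Hairpins for knockdown were directed at luciferase (shLuciferase, the control), at ZMYND8, a reader of modified histone tails (shZMYND8), or at JARID1D, the histone demethylase encoded by KDM5D (shJARID1D). Each group had 2 libraries, 6 in all. The labels state neither separate cultures, nor the number of hairpins per target, nor the time after their delivery. The p-values therefore cover only the differences among these libraries, which could be technical ones. The 29 chromatin samples of the series were not analysed here.

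Cells enter mitosis when CDK1 bound to cyclin B is activated by CDC25 phosphatases. Kinetochores then tie chromosomes to the spindle under the watch of a checkpoint, the anaphase-promoting complex (APC/C) ends mitosis by marking cyclin B and securin for destruction, and the central spindle directs the cut between the daughter cells. Many of these genes are transcribed together in G2 by the MuvB complex with B-MYB and FOXM1, and held down in resting cells by the DREAM complex. Both act through a promoter element known as the cell cycle genes homology region (CHR), often near CCAAT boxes that bind NF-Y. The RNA of such genes is therefore higher in a culture with more cells in G2 and mitosis. In bulk RNA, fewer cells in these phases and less RNA per cell cannot be told apart.

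The promoter sequences of the members were searched for the CHR and the CCAAT box. Both are known elements of G2/M genes, and the members were chosen as such, so high shares are no separate finding. RefSeq promoter windows (build GRCh38.p14, 250 bases before to 50 after a transcription start) were matched for 51 of the 59 genes, 62 windows in all, SGOL1 and SGOL2 through synonyms. No window was matched for AURKA, TTK, BUB3, UBE2C, RACGAP1, BIRC5, TPX2 and FOXM1. The CHR was searched as TTTGAA or TTTAAA and the CCAAT box as CCAAT, on both strands. The stretches below are the 250 bases before the start of the 4 members with the smallest p in shZMYND8 among those with a CHR match there. Matches on either strand are in capitals, and the last base lies next to the start.
PRC1: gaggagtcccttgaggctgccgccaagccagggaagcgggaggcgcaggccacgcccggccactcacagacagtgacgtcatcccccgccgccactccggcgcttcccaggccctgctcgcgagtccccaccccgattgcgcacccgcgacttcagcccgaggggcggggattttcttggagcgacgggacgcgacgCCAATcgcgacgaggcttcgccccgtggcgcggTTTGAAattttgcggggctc
CENPA: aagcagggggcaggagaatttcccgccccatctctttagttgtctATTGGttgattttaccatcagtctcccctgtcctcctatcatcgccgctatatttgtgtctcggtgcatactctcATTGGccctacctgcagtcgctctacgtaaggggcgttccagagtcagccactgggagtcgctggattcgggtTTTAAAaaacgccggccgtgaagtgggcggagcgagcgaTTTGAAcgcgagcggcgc
CDK1: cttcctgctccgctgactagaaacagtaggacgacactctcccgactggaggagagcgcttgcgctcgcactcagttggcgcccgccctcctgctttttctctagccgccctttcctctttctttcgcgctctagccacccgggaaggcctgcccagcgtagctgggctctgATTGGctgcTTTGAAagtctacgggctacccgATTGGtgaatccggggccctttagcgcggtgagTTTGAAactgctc
CEP55: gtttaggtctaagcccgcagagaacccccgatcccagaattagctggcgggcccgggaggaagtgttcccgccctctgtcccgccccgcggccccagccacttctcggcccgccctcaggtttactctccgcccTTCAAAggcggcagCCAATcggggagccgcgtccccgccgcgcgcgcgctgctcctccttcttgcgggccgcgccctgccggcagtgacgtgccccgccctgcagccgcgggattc

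These stretches lie at chr15:90994536-90994785 on the minus strand (PRC1, a microtubule bundler of the central spindle), chr2:26785806-26786055 on the plus strand (CENPA, the centromeric histone H3), chr10:60778228-60778477 on the plus strand (CDK1, for which 2 windows were matched) and chr10:93496362-93496611 on the plus strand (CEP55, a protein of the final cut between cells). In PRC1, CENPA and CDK1 a TTTGAA begins 20, 18 and 13 bases before the start. In CEP55 the match is on the other strand, beginning 116 bases before it. Of the 62 member windows, 64.5% held TTTGAA, against 10.5% of 16533 windows of genes tested and 15.2% of all 35116 windows. TTTAAA was in 29% of member windows, 8.72% of windows of genes tested and 12.2% of all. For CCAAT the shares were 77.4%, 34.3% and 34.6%, and 62.9%, 6.75% and 9.27% held CCAAT with either form of the CHR. Position differed too: 33 of the 40 member windows with TTTGAA had a match within 50 bases of the start (82.5%), against 29.1% of the windows of genes tested that held it. A match describes the letters and shows no binding.

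In fragments, the deposited counts of the genes kept stood for an estimated 19919211 to 26793361 per library, and libraries of the same group were further apart than counting error alone (chi-square statistic of 11.2 to 33.4 per gene). The targets were lower in their own knockdown: ZMYND8 stood at 64.7 and 52.7 CPM (the gene's count with every library brought to 1 total) in shLuciferase and 35.5 and 33.2 CPM in shZMYND8, and KDM5D at 58.1 and 61.0 CPM in shLuciferase and 19.6 and 17.9 CPM in shJARID1D. Some marker genes of cell types differed between the groups as well. Epithelial markers (KRT7, KRT8, KRT18, KRT19, EPCAM, CDH1) summed to 2359 and 3368 CPM in shLuciferase, 2181.95 and 2261 CPM in shZMYND8 and 1647 and 1885 CPM in shJARID1D. Of these 6, 2 fell and 1 rose in shZMYND8, and 3 fell in shJARID1D. Stromal markers summed to 1.41 to 2.26 CPM in shLuciferase, 5.74 to 6.05 CPM in shZMYND8 and 2.36 to 3.68 CPM in shJARID1D, with DCN at 0 throughout, and 1 of them, COL1A1, rose in shZMYND8. Immune markers summed to 36.1 to 57.2 CPM, nearly all of it CD68, with CD3E at 0 throughout, and endothelial markers to 0.468 to 1.16 CPM. Of the 6 stromal genes 3 had enough counts to be tested, of the 5 immune genes 2, and of the 4 endothelial genes 0. The 2 immune genes did not pass in any comparison. For scale, 3 fragments of 1 gene stand for 0.112 to 0.151 CPM, so the endothelial sums lay near the floor. The stromal, immune and endothelial sums were all highest in the shZMYND8 libraries, and the part of these markers in the results was not tested.

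The mitotic genes moved together even between libraries of 1 group. The summed level of the 59 genes was 13138 and 12884 CPM in the shLuciferase libraries, 6995 and 8514 CPM in the shZMYND8 libraries and 9948 and 11309.8 CPM in the shJARID1D libraries. The shZMYND8 libraries were the lowest and the shLuciferase libraries the highest, with no overlap among the groups. Within shZMYND8, 58 of 59 genes were higher in replicate 2 than in replicate 1, by a median of 0.27 on the log2 scale, and within shJARID1D 56 of 59 were, by a median of 0.20. Within shLuciferase 30 of 59 were, with a median of 0.00, and over all genes tested the median was 0.00 in each group. The members are therefore not independent readings of a knockdown. The map of all members by library shows this as a lighter second column in both knockdowns.

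**Figure D1:**
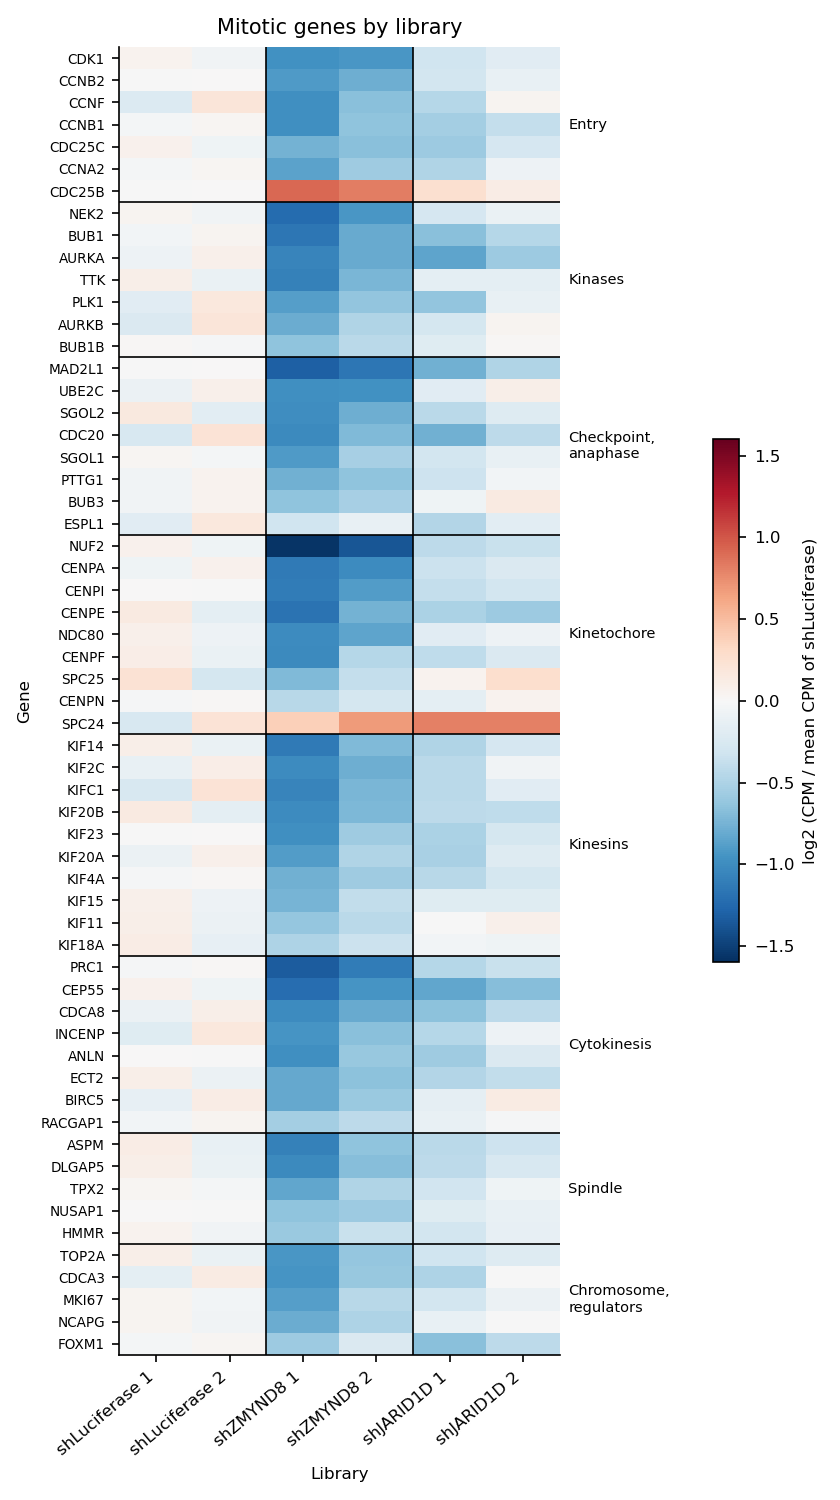
Level of each mitotic gene (rows, by functional group) in each of the 6 libraries (columns), as log2 of CPM over the mean CPM of shLuciferase, blue for lower and red for higher. The shZMYND8 columns are blue in nearly every row, replicate 1 more than replicate 2, CDC25B and SPC24 are red, and the shJARID1D columns are paler.

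The comparison of shZMYND8 with shLuciferase set the mitotic genes of the ZMYND8 knockdown against the control. Of the 59 genes 53 fell, 1 rose (CDC25B) and 5 did not pass the threshold (CENPN, SPC24, SPC25, ESPL1 and FOXM1). Of all 15867 genes tested, 7.34% fell and 8.89% rose at the same threshold, an edgeR adjusted p under 0.05. The median log2 fold change was -0.76 over the members and -0.01 over all genes tested. Both shZMYND8 libraries lay below both shLuciferase libraries for 56 members, against 27.8% of all genes, and 2 lay above, against 30%. The fold change was below 0 for 57 members, against 50.5% of all genes, and at a threshold of 0.01 it was called lower for 32, against 2.44%. Without shZMYND8 replicate 1 the count of falling members was 15, while 50 had an unadjusted p under 0.05, and 1.37% of all genes then fell. Over the other libraries left out it was 42 to 52. A group left with 1 library is assumed to vary like the others. For those other libraries left out the share of all genes called is not given, and for no fit is the share with an unadjusted p under 0.05.

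By role, all 7 kinases, all 10 kinesins, all 8 genes of cytokinesis and all 5 of spindle assembly fell in shZMYND8, as did 6 of 7 genes of mitotic entry, 7 of 8 of the checkpoint and anaphase, 6 of 9 of the kinetochore and 4 of 5 of chromosome structure and regulation. The group medians ran from -0.65 for spindle assembly and for chromosome structure and regulation to -0.92 for the kinetochore, and differences between the role groups were not tested.

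**Figure D2:**
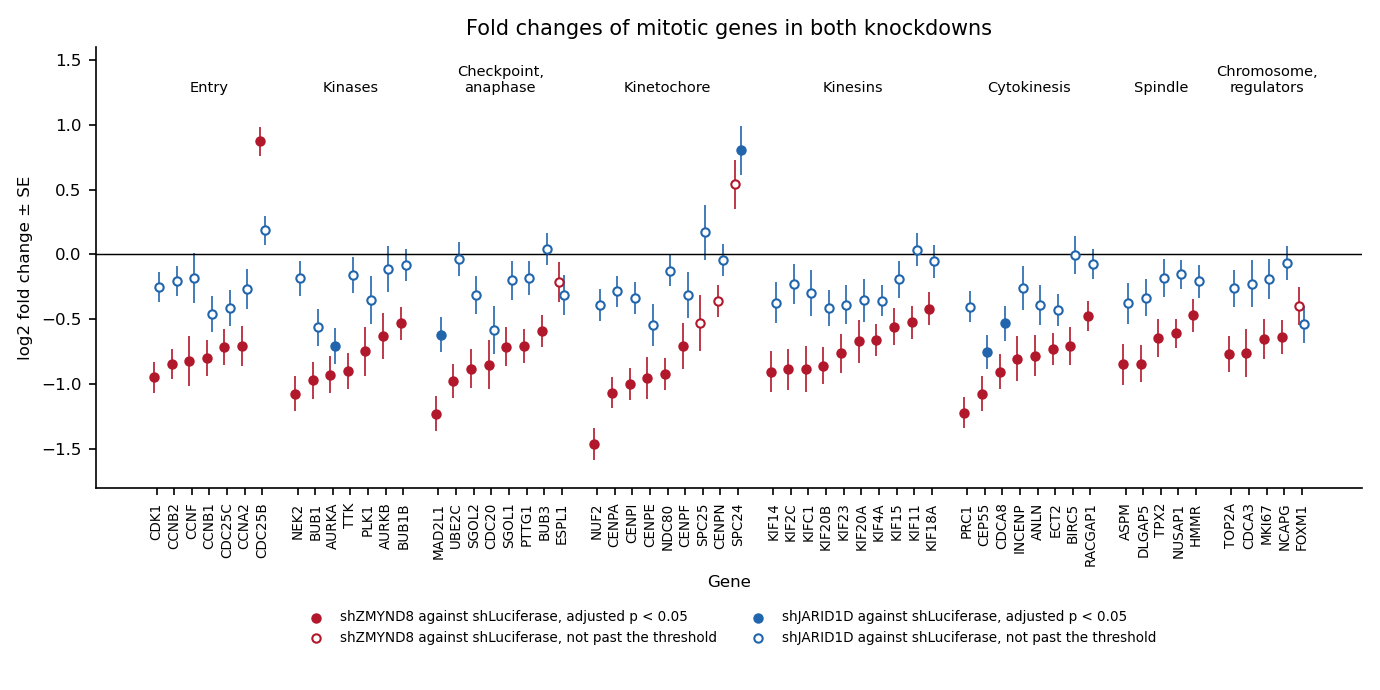
Log2 fold change with its standard error for each mitotic gene, by role, in shZMYND8 (red) and shJARID1D (blue), both against the same 2 shLuciferase libraries; filled points have an edgeR adjusted p under 0.05. Red points lie mostly between -0.4 and -1.5 and blue points nearer 0, with CDC25B and SPC24 above 0 in both.

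Among the genes of mitotic entry, the kinase subunit fell and a phosphatase that activates it rose. CDK1, the kinase that drives entry, stood at 265 and 245 CPM in shLuciferase, 130 and 134 CPM in shZMYND8 and 204 and 224 CPM in shJARID1D. The shZMYND8 libraries were the lowest, and the 3 groups did not overlap. CDK1 was 1.93-fold lower in shZMYND8 (log2 fold change -0.95 ± 0.12 SE, n = 2 libraries per group, edgeR adjusted p = 0.00105). CDC25B, a phosphatase that removes inhibitory phosphates from CDK1, stood at 81.5 and 81.6 CPM in shLuciferase, 155 and 144 CPM in shZMYND8 and 97.0 and 88.5 CPM in shJARID1D. Every shZMYND8 value exceeded every other. It rose 1.83-fold (0.87 ± 0.11, edgeR adjusted p = 0.0014), and was past the threshold in every library left out.

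The related phosphatase CDC25C moved the other way, from 46.9 and 42.5 CPM to 26.6 and 28.1 CPM (-0.71 ± 0.14, edgeR adjusted p = 0.00851). That call was lost without shZMYND8 replicate 1 or 2. Over all libraries left out, the log2 fold change of CDC25C lay between -0.64 and -0.78. Cyclin B genes fell alike: CCNB1 by 0.80 ± 0.14 and CCNB2 by 0.85 ± 0.12 in log2 terms (edgeR adjusted p = 0.00508 and 0.00192). CCNA2, the cyclin of S phase and G2, fell by 0.71 ± 0.16. CCNF, an F-box protein related to cyclins, had the largest p of this group: 69.2 and 91.6 CPM in shLuciferase against 40.6 and 50.4 CPM. Its fall of 0.82 ± 0.19 (edgeR adjusted p = 0.0192) was lost without shZMYND8 replicate 1 (0.172) or replicate 2 (0.058), within 0.00478 to 0.172. Outside the members, the kinases that hold CDK1 inactive did not pass, with WEE1 at 0.04 ± 0.13 and PKMYT1 at -0.25 ± 0.26, nor did CDC25A at 0.16 ± 0.17 (edgeR adjusted p = 0.882, 0.567 and 0.569).

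All 7 kinase genes fell, from -0.53 for BUB1B to -1.07 for NEK2. NEK2, a kinase of centrosome separation, stood at 90.5 and 84.5 CPM in shLuciferase, 37.1 and 46.0 CPM in shZMYND8 and 72.5 and 81.4 CPM in shJARID1D. The shZMYND8 values were far below the rest, and NEK2 was 2.1-fold lower than in the control (edgeR adjusted p = 0.00115). BUB1, a checkpoint kinase at the kinetochore, stood at 268 and 285 CPM in shLuciferase, 124 and 158 CPM in shZMYND8 and 174 and 201 CPM in shJARID1D, without overlap, a log2 fold change of -0.97 ± 0.14 in shZMYND8 (edgeR adjusted p = 0.00242). AURKA, the kinase of spindle poles, fell by 0.93 ± 0.14, TTK, which starts the checkpoint signal, by 0.90 ± 0.14, and PLK1 by 0.75 ± 0.19. PLK1 lost its call without shLuciferase replicate 2 or either shZMYND8 library, and without the filter. AURKB, the kinase of the chromosomal passenger complex, had the largest p. It stood at 90.4 and 122 CPM in shLuciferase and 61.2 and 75.9 CPM in shZMYND8, close but not overlapping (-0.63 ± 0.18, edgeR adjusted p = 0.0389). The call was lost without shLuciferase replicate 2 (0.111), shZMYND8 replicate 1 (0.272) or shZMYND8 replicate 2 (0.0817), within 0.00575 to 0.272.

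The checkpoint effector and the genes that hand ubiquitin to the APC/C fell more than most members. MAD2L1, which blocks the APC/C until chromosomes are attached, stood at 58.4 and 59.4 CPM in shLuciferase, 23.7 and 26.5 CPM in shZMYND8 and 34.6 and 42.1 CPM in shJARID1D. No 2 of the groups overlapped, and MAD2L1 was 2.34-fold lower in shZMYND8 (-1.23 ± 0.14, edgeR adjusted p = 0.000729). UBE2C, a ubiquitin-conjugating enzyme of the APC/C, stood at 175 and 198 CPM in shLuciferase, 94.2 and 95.0 CPM in shZMYND8 and 165 and 199 CPM in shJARID1D. The control and shJARID1D values overlapped and the shZMYND8 values lay far below both (-0.98 ± 0.13, edgeR adjusted p = 0.00154). CDC20, the APC/C activator, fell by 0.85 ± 0.19, the cohesin protectors SGOL1 and SGOL2 by 0.71 ± 0.15 and 0.88 ± 0.15, and BUB3, the partner of BUB1, by 0.59 ± 0.13.

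Separase and securin differed in whether they passed. ESPL1, the separase that cuts cohesin, stood at 89.7 and 114 CPM in shLuciferase, 81.6 and 94.0 CPM in shZMYND8 and 73.7 and 90.5 CPM in shJARID1D. All 3 groups overlapped (-0.22 ± 0.16 in shZMYND8, edgeR adjusted p = 0.388). PTTG1, the securin that inhibits separase, fell by 0.71 ± 0.13 (edgeR adjusted p = 0.00703). Its reads may be shared with near copies of the gene, and those of SGOL1 with its antisense gene, so these 2 values are uncertain. Among 16 tested genes of the APC/C and its partners, 3 fell and none rose: the second ubiquitin-conjugating enzyme UBE2S (-1.26 ± 0.24, edgeR adjusted p = 0.00696), the inhibitor FBXO5 (-0.62 ± 0.12, edgeR adjusted p = 0.00842) and the subunit gene ANAPC4 (-0.42 ± 0.12, edgeR adjusted p = 0.0469). The 3 are 18.8% of these 16, against 7.34% of all genes that fell, and the median of the 16 was -0.23.

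**Figure D3:**
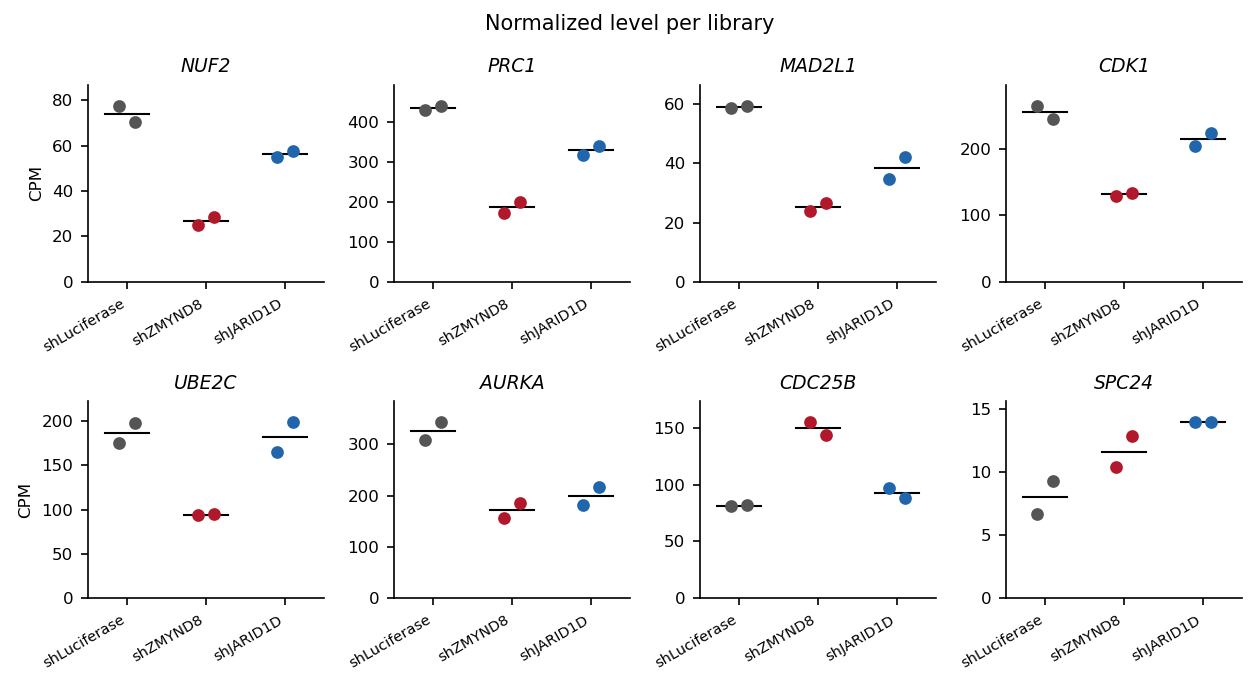
CPM in each library (points) with the group mean (line) for 8 mitotic genes. NUF2, PRC1, MAD2L1, CDK1 and UBE2C are lowest in shZMYND8, AURKA is low in both knockdowns, CDC25B is highest in shZMYND8 and SPC24 is highest in shJARID1D.

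Of the 4 subunits of the NDC80 complex, which binds kinetochores to microtubules, NUF2 and NDC80 passed in shZMYND8 while SPC24 and SPC25 did not. Differences between the subunits were not tested. NUF2 stood at 77.6 and 70.3 CPM in shLuciferase, 24.9 and 28.7 CPM in shZMYND8 and 55.1 and 57.7 CPM in shJARID1D. The 3 groups were fully separated, and NUF2 was 2.76-fold lower in shZMYND8 (-1.46 ± 0.13, edgeR adjusted p = 0.000425), and between -1.37 and -1.57 when any 1 library was left out. NDC80, with which NUF2 pairs, stood at 179 and 161 CPM, 85.1 and 94.7 CPM, and 150 and 161 CPM in the same order. NDC80 fell by 0.92 ± 0.12 (edgeR adjusted p = 0.00141).

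The inner pair of the complex, SPC24 and SPC25, did not pass in shZMYND8. The pair had the lowest counts of the members. For SPC25 both shZMYND8 libraries lay below both controls, the direction of NUF2 and NDC80. SPC25 stood at 11.5 and 8.01 CPM in shLuciferase, 5.998 and 7.51 CPM in shZMYND8 and 10.2 and 11.8 CPM in shJARID1D (-0.53 ± 0.22 in shZMYND8, edgeR adjusted p = 0.124). SPC24 stood at 6.73 and 9.30 CPM, 10.5 and 12.8 CPM, and 13.97 and 13.97 CPM in the same order, so both knockdowns lay above the control (0.54 ± 0.19 in shZMYND8, edgeR adjusted p = 0.0841). Without shLuciferase replicate 2 both passed, SPC25 at -0.77 (-0.25 to -0.77 over all libraries left out) and SPC24 at 0.79 (0.32 to 0.79). SPC24 also passed with a replicate block. The window matched for SPC24 held neither TTTGAA nor TTTAAA, while those of SPC25, ESPL1 and CENPN held TTTGAA. Neither string was in the windows of 6 members that fell (AURKB, BUB1, CCNA2, CENPI, NEK2 and SGOL1). Other forms of the CHR were not searched. The median log2 fold change in shZMYND8 was -0.77 over the 44 members with either string in a window and -0.71 over the 7 without.

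Genes of the centromere fell with NUF2. CENPA stood at 56.4 and 62.1 CPM in shLuciferase, 27.1 and 29.5 CPM in shZMYND8 and 46.8 and 50.6 CPM in shJARID1D, with no overlap of groups. CENPA was 2.09-fold lower in shZMYND8 (-1.07 ± 0.12, edgeR adjusted p = 0.000817). CENPI, a subunit of the constitutive centromere network, fell by 1.00 ± 0.12, the kinetochore motor CENPE by 0.95 ± 0.16 and the large kinetochore protein CENPF by 0.71 ± 0.18. CENPN, which reads the CENPA nucleosome, was at -0.36 ± 0.12 and did not pass (edgeR adjusted p = 0.0753), though it did by DESeq2 and with a replicate block. Of 28 other kinetochore and checkpoint genes, 10 fell (35.7%, against 7.34% of all genes), none rose and 18 did not pass, with a median of -0.23. SKA1, of the complex that couples kinetochores to microtubule ends, was 2.05-fold lower (edgeR adjusted p = 0.00142), and CENPL and CENPO of the centromere network fell by 0.83 ± 0.14 and 0.66 ± 0.12.

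All 10 mitotic kinesins fell, from -0.42 for KIF18A to -0.90 for KIF14. KIF20B, a kinesin of late mitosis, stood at 149 and 122 CPM in shLuciferase, 67.4 and 82.4 CPM in shZMYND8 and 102 and 102 CPM in shJARID1D (-0.86 ± 0.14 in shZMYND8, edgeR adjusted p = 0.00412). KIF14, a kinesin of cytokinesis, stood at 209 and 183 CPM, 89.5 and 120 CPM, and 140 and 163 CPM in the same order (-0.90 ± 0.16, edgeR adjusted p = 0.00526). For both genes every shZMYND8 library lay below every other library. Both lost the call without shZMYND8 replicate 1, KIF20B at 0.0633 (range 0.00113 to 0.0633) and KIF14 at 0.0651 (range 0.00316 to 0.0651).

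The microtubule depolymerase KIF2C fell by 0.89 ± 0.16, the minus-end motor KIFC1 by 0.88 ± 0.18, and KIF11, which pushes spindle poles apart, by 0.52 ± 0.13. KIF4A fell by 0.66 ± 0.12, with reads that may be shared with its near copy KIF4B. KIF18A, which dampens chromosome movement, stood at 69.1 and 58.4 CPM in shLuciferase and 45.2 and 50.3 CPM in shZMYND8. Its edgeR adjusted p of 0.0494 rose above the threshold without any 1 library other than shLuciferase replicate 2. Over all libraries left out, its log2 fold change lay between -0.29 and -0.54. The call was also lost under upper quartile scaling, library totals only, no filter, a mean count of at least 50, voom and only the groups compared.

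Kinesins that carry cargo in interphase were read beside the mitotic ones. Of 27 tested, 2 fell in shZMYND8, none rose and 25 did not pass, with a median of -0.02. These 2 are 7.41% of the list, near the 7.34% of all genes that fell, so the count says nothing particular to it. They were KIF5B (582 and 526 CPM in shLuciferase against 310 and 382 CPM, -0.68 ± 0.14, edgeR adjusted p = 0.0112) and KIF5C (19.3 and 18.9 CPM against 9.60 and 11.7 CPM, -0.85 ± 0.15, edgeR adjusted p = 0.00582), heavy chains of the cargo motor kinesin-1. Both also fell in shJARID1D, by 0.61 ± 0.14 and 1.17 ± 0.15 (edgeR adjusted p = 0.0389 and 0.00758).

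Genes of the central spindle and cytokinesis all fell in shZMYND8. PRC1 stood at 430.3 and 442 CPM in shLuciferase, 174 and 201 CPM in shZMYND8 and 318 and 342 CPM in shJARID1D. The groups stood apart by far more than the libraries of a group, and PRC1 was 2.33-fold lower in shZMYND8 (-1.22 ± 0.12, edgeR adjusted p = 0.000554). CEP55 stood at 356 and 322 CPM, 146 and 176 CPM, and 191 and 211 CPM in the same order. CEP55 was 2.11-fold lower in shZMYND8 (-1.07 ± 0.13, edgeR adjusted p = 0.00111). ECT2, the exchange factor that activates RhoA at the cell's equator, fell by 0.73 ± 0.12, and ANLN, the scaffold of the contractile ring, by 0.78 ± 0.16.

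Partners within complexes of this group fell by unequal amounts. RACGAP1 and KIF23 together form centralspindlin. RACGAP1 stood at 303 and 320.4 CPM in shLuciferase, 214 and 234 CPM in shZMYND8 and 287 and 307 CPM in shJARID1D. It fell by 0.48 ± 0.12 (edgeR adjusted p = 0.0216), a call lost without shZMYND8 replicate 1 (0.186), shZMYND8 replicate 2 (0.0837) or shJARID1D replicate 1 (0.0513), within 0.0173 to 0.186. KIF23 fell by 0.76 ± 0.15. Of the chromosomal passenger subunits beside AURKB, CDCA8 fell by 0.90 ± 0.14, the scaffold INCENP by 0.80 ± 0.17 and BIRC5 (survivin) by 0.71 ± 0.15. Differences between partners were not tested.

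Spindle assembly genes fell from -0.47 for HMMR to -0.85 for ASPM. DLGAP5, a microtubule-stabilizing protein near chromosomes, stood at 318 and 278 CPM in shLuciferase, 147 and 185 CPM in shZMYND8 and 223 and 249.7 CPM in shJARID1D (-0.84 ± 0.14, edgeR adjusted p = 0.00469). NUSAP1, which bundles microtubules, stood at 302 and 299.6 CPM, 193 and 202 CPM, and 263 and 278 CPM in the same order (-0.61 ± 0.11, edgeR adjusted p = 0.00622). Both shZMYND8 values were the lowest for each gene. Without shZMYND8 replicate 1 both lost the call, DLGAP5 at 0.0648 (range 0.00268 to 0.0648) and NUSAP1 at 0.0796 (range 0.007 to 0.0796). HMMR stood at 162 and 151 CPM in shLuciferase and 104 and 122 CPM in shZMYND8, and its edgeR adjusted p of 0.0327 rose above the threshold without any 1 library other than shLuciferase replicate 2, to between 0.0534 and 0.268. TPX2, the activator of AURKA, fell by 0.65 ± 0.15.

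Among genes of chromosome structure and regulation, 4 of 5 fell. TOP2A, the topoisomerase that untangles sister chromatids, stood at 1389 and 1213 CPM in shLuciferase, 682 and 844 CPM in shZMYND8 and 1040.2 and 1129 CPM in shJARID1D. TOP2A, again lowest in shZMYND8, was 1.7-fold below the control there (-0.77 ± 0.14, edgeR adjusted p = 0.00626). NCAPG, a condensin subunit, stood at 206 and 192 CPM, 114 and 142 CPM, and 183 and 197 CPM in the same order, with control and shJARID1D overlapping (-0.63 ± 0.13 in shZMYND8, edgeR adjusted p = 0.0112). Without shZMYND8 replicate 1 these calls were lost, TOP2A at 0.0773 (range 0.00355 to 0.0773) and NCAPG at 0.131 (range 0.00914 to 0.131). MKI67, the Ki-67 antigen, fell by 0.65 ± 0.16 and CDCA3 by 0.76 ± 0.18.

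Of 12 condensin and cohesin genes outside the members, 5 fell in shZMYND8, none rose and 7 did not pass, with a median of -0.43. The 5 are 41.7%, where 7.34% of all genes fell. The condensin genes NCAPH and SMC4 fell by 0.82 ± 0.13 and 0.77 ± 0.14, and the cohesin gene SMC3 by 0.50 ± 0.13 (edgeR adjusted p = 0.00328, 0.0059 and 0.0308).

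The transcription factors of the G2/M programme mostly did not pass. FOXM1 stood at 117 and 121 CPM in shLuciferase, 79.2 and 101 CPM in shZMYND8 and 74.6 and 88.9 CPM in shJARID1D. Both knockdowns lay below the control and overlapped each other, at -0.40 ± 0.15 in shZMYND8 and -0.54 ± 0.15 in shJARID1D (edgeR adjusted p = 0.0912 and 0.0602). Without shLuciferase replicate 1 FOXM1 passed in shJARID1D (-0.57, and between -0.42 and -0.67 over all libraries left out). FOXM1 also passed in shJARID1D by DESeq2 and with a replicate block, and in shZMYND8 with a replicate block. Of 14 genes listed as MuvB, B-MYB and DREAM regulators, 1 fell, 1 rose and 12 did not pass in shZMYND8, with a median of -0.09. That is 7.14% in each direction, near the 7.34% and 8.89% of all genes tested. LIN9, a MuvB subunit, fell by 0.46 ± 0.13 and E2F7, a repressor of the E2F family, rose by 0.56 ± 0.14 (edgeR adjusted p = 0.0408 and 0.0264).

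Over the 109 tested genes of 6 pooled lists outside the members (mitotic, kinetochore, APC/C, condensin and cohesin, MuvB and WEE1 lists), 48 fell in shZMYND8, 1 rose and 60 did not pass, with a median of -0.43. The 48 are 44%, where 7.34% of all genes fell. Of the 36 among the 109 that belong to G2 and mitosis in general, 29 fell in shZMYND8 (80.6%), none rose and 7 did not pass. Their median was -0.72, and all 36 had both shZMYND8 libraries below both controls, against 27.8% of all genes. Examples are the kinase PBK, at 108 and 94.8 CPM in shLuciferase and 47.7 and 47.4 CPM in shZMYND8 (-1.09 ± 0.12), the chromatin protein HMGB2, at 48.2 and 48.4 CPM in shZMYND8 (a fall of 1.00 ± 0.13), and CDCA2 (-0.90 ± 0.12), with edgeR adjusted p of 0.000654, 0.00142 and 0.00153. DNA replication genes were counted beside them: of 38, 5 fell (13.2%), 1 rose and 32 did not pass, with a median of -0.21. Of all genes 7.34% fell and 8.89% rose. ORC6 of the origin recognition complex fell by 0.68 ± 0.14 and the clamp loader gene RFC3 by 0.59 ± 0.12, and GINS3 of the replicative helicase rose by 0.72 ± 0.13 (edgeR adjusted p = 0.00951, 0.0112 and 0.00513).

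**Figure D4:**
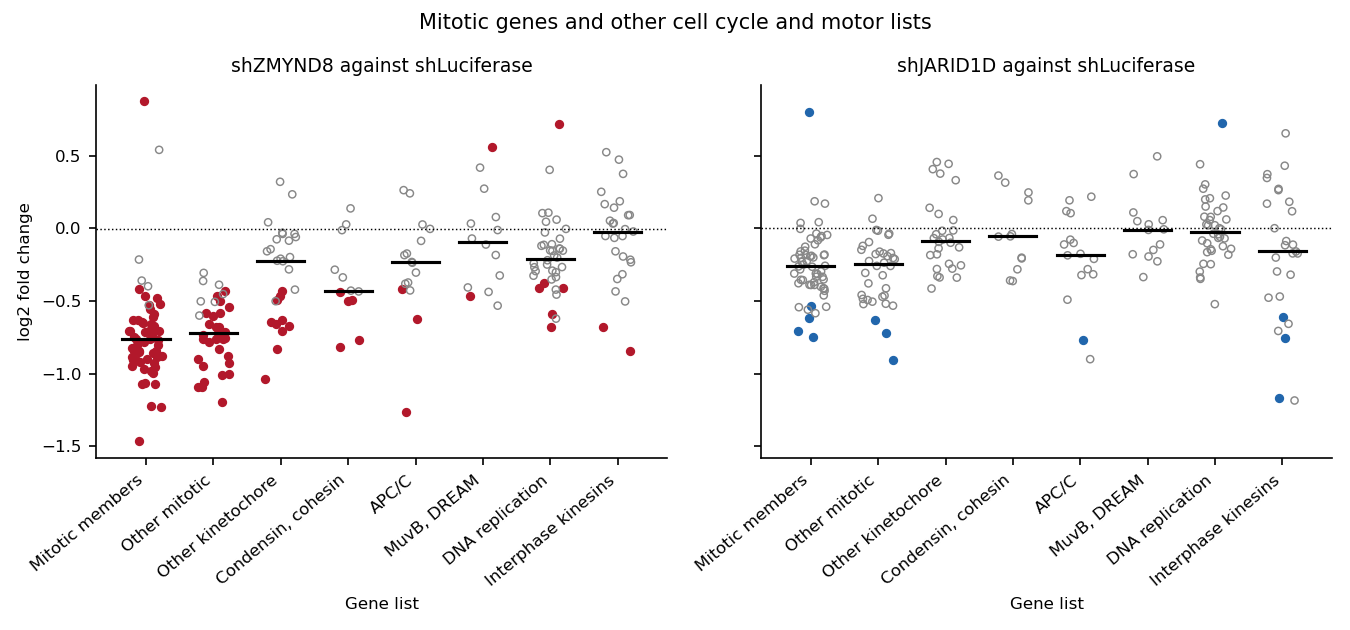
Log2 fold change of each tested gene (points) by list, in shZMYND8 (left) and shJARID1D (right) against shLuciferase; filled points have an edgeR adjusted p under 0.05, bars are list medians and the dotted line is the median of all genes tested. In shZMYND8 the medians run from -0.76 for the members and -0.72 for other mitotic genes to -0.21 for DNA replication and -0.02 for interphase kinesins.

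The comparison of shJARID1D with shLuciferase, which uses the same control libraries, gave few calls among the members. Of 59 genes, 4 fell (CEP55, AURKA, MAD2L1 and CDCA8), 1 rose (SPC24) and 54 did not pass. Of all genes tested 2.79% fell and 2.96% rose at the same adjusted threshold. With the 4 included, 22 members had an unadjusted p under 0.05 in the direction of a fall. The share of all genes with such an unadjusted p is not given, so the 22 are not read against the shares above. The median over the members was -0.26, against 0.00 over all genes tested, and 37 members had both shJARID1D libraries below both controls, against 24.9% of all genes, and 2 lay above, against 27%. The fold change was below 0 for 54 members, against 49.9% of all genes, and at a threshold of 0.01 edgeR called 0 lower, against 0.258%. The counts of other fits below lack the share of all genes called there, and are not read as changes of the members. Leaving out a library moved the count of falling members to 7 (without shLuciferase replicate 1), 6 (without shLuciferase replicate 2), 2 (without either shZMYND8 library) or 0 by edgeR (without either shJARID1D library). In the last cases 6 members without replicate 1, and 24 without replicate 2, had an unadjusted p under 0.05.

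In shJARID1D, CEP55 was 1.68-fold below its control level (-0.75 ± 0.13, edgeR adjusted p = 0.0172), and AURKA, at 308 and 343 CPM in shLuciferase and 182 and 218 CPM in shJARID1D, was 1.63-fold lower (-0.70 ± 0.14, edgeR adjusted p = 0.0234). Neither overlapped the control, and neither differed between the knockdowns past the threshold. Both lost the call without shJARID1D replicate 1 or 2, CEP55 at 0.167 and 0.0887 (range 0.0103 to 0.167) and AURKA at 0.212 and 0.0862 (range 0.01 to 0.212). MAD2L1 fell by 0.62 ± 0.13 (edgeR adjusted p = 0.0307), a call lost without any 1 library of either knockdown (0.06 to 0.266, range 0.0187 to 0.266).

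CDCA8, the passenger subunit also called borealin, stood at 95.9 and 109 CPM in shLuciferase, 50.9 and 58.6 CPM in shZMYND8 and 65.0 and 76.7 CPM in shJARID1D. Its fall of 0.53 ± 0.13 in shJARID1D lay at the threshold (edgeR adjusted p = 0.0489) and was lost without any 1 library other than shLuciferase replicate 1, at 0.0807 to 0.352. SPC24 was 1.74-fold higher (0.80 ± 0.19, edgeR adjusted p = 0.0415), a call lost without any 1 library other than shLuciferase replicate 2, at 0.0595 to 0.197. Outside the members, 3 of the 36 further mitotic genes fell in shJARID1D (8.33%, against 2.79% of all genes), with a median of -0.25. The medians of the 28 other kinetochore genes and the 38 DNA replication genes were -0.09 and -0.02. BUB1 lay just outside the threshold at -0.56 ± 0.14 (edgeR adjusted p = 0.0501). It passed under relative log expression scaling, a mean count of at least 50, DESeq2, voom and a replicate block, and without shLuciferase replicate 1. Over all libraries left out, its log2 fold change lay between -0.46 and -0.67.

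The knockdowns were then compared directly, in the fit in which all 6 libraries share 1 estimate of spread. Of 59 members 25 were lower in shZMYND8 than in shJARID1D, 1 was higher (CDC25B) and 33 did not pass, where 7.02% of all genes were lower and 8.67% higher. The median difference over the members was -0.46, against 0.00 over all genes tested, and 52 members had both shZMYND8 libraries below both shJARID1D libraries, against 32.7% of all genes, and 1 lay above, against 32.7%. The difference was below 0 for 56 members, against 49.8% of all genes, and at a threshold of 0.01 it was called for 10, against 1.84%. The counts that follow come from other fits without the share of all genes called there, and are not read as changes of the members. The count of lower members was 40 with only the 4 knockdown libraries in the fit, and 40 without either 1 of the shLuciferase libraries. It was 4 and 9 without shZMYND8 replicate 1 and 2, and 12 and 6 without shJARID1D replicate 1 and 2.

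NUF2 differed most between the knockdowns, being 2.1-fold lower in shZMYND8 than in shJARID1D (-1.07 ± 0.13, edgeR adjusted p = 0.0011). UBE2C differed by -0.94 ± 0.13, NEK2 by -0.89 ± 0.13, PRC1 by -0.82 ± 0.12 and NDC80 by -0.79 ± 0.12, with edgeR adjusted p from 0.00243 to 0.00346. NUF2, UBE2C, NEK2 and PRC1 passed in every alternative fit, and NDC80 in all but the fit without shZMYND8 replicate 1 (0.0511, range 0.000636 to 0.0511). UBE2C and NDC80 overlapped the control in shJARID1D. CDC25B was 1.61-fold higher in shZMYND8 than in shJARID1D (0.69 ± 0.11, edgeR adjusted p = 0.00496). That call was lost without shZMYND8 replicate 1 (0.0602) or shJARID1D replicate 2 (0.0751), within 0.00112 to 0.0751.

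Of the 53 genes that fell in shZMYND8, 25 were also lower there than in shJARID1D. The other 28 did not differ past the threshold between the knockdowns, which does not show that they moved alike. CEP55 differed by -0.32 ± 0.13, AURKA by -0.22 ± 0.14 and CDCA8 by -0.37 ± 0.14 (edgeR adjusted p = 0.127, 0.306 and 0.089). MAD2L1 alone passed as lower in all 3 comparisons, being 1.53-fold lower in shZMYND8 than in shJARID1D (edgeR adjusted p = 0.0166), a call lost without shZMYND8 replicate 1 or 2 or shJARID1D replicate 2 (up to 0.155).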

How the data were processed

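The deposited file is a count-tracking table of Cuffdiff whose values are expected counts, fragment counts estimated per gene and library, per the file headers. Build hg19 and the tools Bowtie 1.1.2, TopHat2 2.0.12, edgeR 3.12.0 and Cuffdiff appear in the submitters' processing notes without roles. Which gene annotation and strand setting were used is not given in the sources here. Columns named Rac7 were taken as shZMYND8, since an antibody label gives RACK7 as another name of ZMYND8. The counts carry a scaling of 0.881 to 1.16 per fragment, read as the most frequent value near 1. The 18 variance columns were not used, and 60 genes marked as not quantified (HIDATA) in a library, none of them a member, were left out.

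Rounded counts entered edgeR's quasi-likelihood test (version 4.0.16, R 4.3.3) with TMM scaling, genes kept by filterByExpr, Benjamini-Hochberg adjustment over 15867 genes and a threshold of 0.05, all 6 libraries sharing 1 estimate of spread (3 residual degrees of freedom, common biological coefficient of variation 12.3%). Standard errors are the fold change over the square root of F. The script was tested on simulated data. The members, lists, subgroups and tests were chosen with earlier results of these data known. Described in full were, per role, the 2 members with the smallest p and the 1 with the largest in shZMYND8, and the 5 smallest in each other comparison; of other lists, up to 3 genes. Other members named in passing were chosen after their values were seen. Alternatives were other scalings and filters, DESeq2 1.42.0, limma 3.58.1 (voom), only the groups compared, a replicate block, each library left out and a threshold of 0.01. Undoing the deposited scaling was added after the data were seen. Figures were drawn with Python 3.11.15 and matplotlib 3.10.9. A further marker list is not reported here.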

Additional observations from a re-analysis of the deposited data

How the results depend on the processing

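Under other scalings, filters, DESeq2, voom, only the groups compared and the scaling undone, 44 to 54 members fell in shZMYND8, and 32 at a threshold of 0.01. Of the 53, 15 passed in every fit at the threshold of 0.05 (AURKA, BUB1, CCNB2, CDCA8, CDK1, CENPA, CENPI, CEP55, MAD2L1, NDC80, NEK2, NUF2, PRC1, TTK and UBE2C), and 44 in every fit with all 6 libraries or only the groups compared. Over the libraries left out, 15 to 52 fell and 1 to 2 rose. In shJARID1D, 4 members fell in the fit reported, 11 by DESeq2, 2 with only the groups compared, and 0 by edgeR without the filter or at 0.01 (22 with an unadjusted p under 0.05), with 0 to 7 over the libraries left out. The 1 rise there, SPC24, became 0 by edgeR without the filter, with only the groups compared or at 0.01 (1 with an unadjusted p under 0.05, and 1 by DESeq2), and 0 to 1 over the libraries left out. Between the knockdowns, 25 members were lower in shZMYND8, 38 with library totals only, 40 with only the groups compared and 10 at 0.01, with 4 to 40 lower and 0 to 1 higher over the libraries left out. The shares of all genes called in each of these fits are not given beside the counts, which are not read as changes of the members. No call changed sign in any fit. Whether replicate numbers pair the libraries was not tested, and no label ties a number to a batch. Differences between replicate 2 and replicate 1 correlated across all genes tested at 0.0925, 0.17 and 0.0969 between groups. Of the 59 members, 58 were higher in replicate 2 in shZMYND8, 56 in shJARID1D and 30 in shLuciferase. With a replicate block 55 members fell and 2 rose in shZMYND8, 16 fell in shJARID1D, and 44 were lower in shZMYND8 than in shJARID1D. The shares of all genes called with the block are likewise not given, so these counts are not read as changes of the members. Among the members, SPC24 and SPC25 had the lowest counts.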
